A study of Arabidopsis thaliana with 38 samples.

Results

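The lipid-transfer protein superfamily genes of Arabidopsis thaliana were followed through seed RNA-seq of Col-0 and *vel3*. They were all genes whose annotation in the deposited values contains the words lipid-transfer protein or lipid transfer protein, in any case of letters, with the 2S albumin storage protein genes left out. The rule found 122 of the 26925 genes listed for globular seeds and for endosperm after 24 h of imbibition (24HAI). Only 2 of the 122 are among the 640 genes listed for mature endosperm.

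Non-specific lipid transfer proteins are small secreted proteins whose cysteines form disulfide bridges around a cavity that holds a fatty acid or another lipid. They are known for carrying cutin, wax and suberin monomers to the outer cell wall, and several act in defence and in signals that move through the plant. Some have a long C-terminal tail through which the protein is anchored to the membrane by a lipid (the LTPG type), and others a proline-rich stretch before the cysteines. In seeds, genes of this kind are used in the embryo epidermis, the endosperm and the seed coat, tissues that each build a cuticle or a suberized wall.

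The libraries compared were Col-0 and *vel3* (the T-DNA allele *vel3-1* in the Col-0 background), with 3 per genotype at each stage and all seeds set at 16 °C. Globular seeds were whole seeds pooled from several siliques at 8 days after pollination, and mature and 24HAI samples were endosperm-enriched tissue after 1 h and 24 h of imbibition. The deposited unit is TPM, reads per gene scaled by gene length and library, so depth per gene is unknown and errors come from the spread between libraries. In globular seeds the main test took that spread from genes at the same level and not from each gene's own libraries. The stages were normalized separately and their levels are set side by side without a test. *VEL3* itself, read as a check of the labels, was listed at 1.34, 1.99 and 2.23 TPM in globular Col-0 and at 9.79, 8.30 and 13 TPM in *vel3*-labelled libraries, so every direction below is that of the labels. *AGL62*, a young endosperm gene, was also higher there, with 12.2, 9.34 and 9.27 TPM against 1.25, 2.59 and 3.14 TPM in Col-0 (log2 difference 1.80, limma adjusted p = 0.0018). Globular libraries are numbered as in the header of their table, since their column names fit a genotype and not 1 sample. In library 3 labelled *vel3*, 4212 nuclear genes that are at 0 in all 24HAI libraries had a median of 10.0 TPM, against 0.317 to 1.43 TPM in the other 5 globular libraries. The imbibed endosperm markers EPR1, MAN7, EXPA2 and NCED6 summed to between 16560 and 20895 TPM in each 24HAI library, nearly all of it EPR1. Seed coat markers summed to between 439 and 806 TPM in globular seeds, the lowest value in library 3 labelled *vel3*. In such bulk samples, fewer cells of a type and less RNA per cell cannot be told apart.

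The translated RefSeq genes of TAIR10.1 showed what the 122 share beyond the annotation. An 8-cysteine pattern, with a doublet (CC) in the middle and then a pair 1 residue apart (CXC), was found in 104 of them. Of those, 14 have 19 residues between CC and CXC, the spacing of LTP1, and 19 have 8 residues, the small type. Another 31 have 12 residues there, and these carry a median of 61 residues after the last cysteine, against 0 in the small type and 4 in the LTP1 type. A gap of 13 residues occurs in 23, among them the 7 genes of the EARLI1 cluster, and a gap of 9 in 10. Without the pattern are 13 other genes and 5 glycolipid transfer proteins such as ACD11 and GLTP1, which share the words of the annotation and not the fold. In 10 of the 122 the coding sequence matched that of another gene at 95% identity or more, and no gene with a test result named below is among them except AT1G62510, whose match AT1G62515 lies over it on the opposite strand.

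The coding stretches from the first to the last cysteine codon are given for the most abundant gene in globular seeds (*LTP6*), the pair that fell most in globular seeds (AT5G38160 and AT5G38180) and the gene that was higher at both stages (AT1G05450). They were read 5′ to 3′ from TAIR10.1 on the coding strand, and capitals mark the 8 cysteine codons. *LTP6* (AT3G08770) lies on the minus strand at chr3:2664458-2664718, and the other 3 on the plus strand at chr5:15225947-15226144, chr5:15229943-15230140 and chr1:1600100-1600330, each within 1 exon.
*LTP6*: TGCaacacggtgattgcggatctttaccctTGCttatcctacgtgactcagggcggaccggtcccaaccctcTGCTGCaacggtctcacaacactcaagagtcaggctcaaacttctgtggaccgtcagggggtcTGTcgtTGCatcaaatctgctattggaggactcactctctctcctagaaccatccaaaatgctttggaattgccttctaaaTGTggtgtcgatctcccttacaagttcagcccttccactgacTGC
AT5G38160: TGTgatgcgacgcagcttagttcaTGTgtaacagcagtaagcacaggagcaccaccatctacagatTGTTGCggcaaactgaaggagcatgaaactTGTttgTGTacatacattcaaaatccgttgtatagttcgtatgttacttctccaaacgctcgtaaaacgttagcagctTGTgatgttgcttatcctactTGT
AT5G38180: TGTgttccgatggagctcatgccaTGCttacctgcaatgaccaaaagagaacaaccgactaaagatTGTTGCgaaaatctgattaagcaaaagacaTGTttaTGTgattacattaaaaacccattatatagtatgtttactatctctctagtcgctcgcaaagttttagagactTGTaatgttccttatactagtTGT
AT1G05450: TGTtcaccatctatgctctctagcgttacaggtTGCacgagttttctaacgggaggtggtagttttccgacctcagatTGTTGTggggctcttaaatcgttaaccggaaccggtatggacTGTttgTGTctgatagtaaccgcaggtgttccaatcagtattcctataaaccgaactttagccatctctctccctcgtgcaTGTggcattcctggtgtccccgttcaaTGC
The stretch measures 261 bases in *LTP6*, 231 in AT1G05450 and 198 in both chromosome 5 genes.

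In globular seeds a few of the genes carried nearly all of the transcripts. *LTP6* was the most abundant transcript of the whole table in Col-0, with 14395, 15307 and 16075 TPM, and accounted for 59.5% of the 25643 TPM that the 122 sum to. *LTP1* (AT2G38540), a cell wall protein of epidermal cells, had 4588, 3944 and 4338 TPM, and *LTP3* (AT5G59320) had 2259, 2254 and 2252 TPM. Together the 3 made up 85% of the sum. AT5G09370, AT1G55260 and AT4G15160 followed at Col-0 means of 772, 511 and 341 TPM. At the other end 75 of the 122 lay under 1 TPM in Col-0.

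At 24HAI other genes led. AT5G55410, of the type with 9 residues between CC and CXC, had 2083, 2465 and 2122 TPM in Col-0, which was 71.6% of a sum of 3104 TPM, while its globular Col-0 values were 1.73, 0.412 and 0.334 TPM. AT1G62510, *LTP2* and AT1G48750 followed among the 122 with Col-0 means of 235, 231 and 142 TPM, and none of the 3 passed 5 TPM in globular Col-0. *LTPG1* (AT1G27950), whose annotation does not carry the words of the rule, is not ranked. Its Col-0 means were 405 TPM in globular seeds and 300 TPM at 24HAI. The globular leaders were low here, with 8.80, 10.8 and 6.43 TPM for *LTP6* and 0.371, 0.367 and 0.518 TPM for *LTP3*. *XYP1* (AT5G64080), an arabinogalactan protein with a lipid-transfer domain known from xylem differentiation, was among the few with a high level at both stages, with means of 169 TPM in globular seeds and 76.2 TPM at 24HAI. *ACD11* (AT2G34690), a sphingolipid transfer protein whose loss causes cell death, had means of 21.3 and 46.2 TPM. Of the 122 genes, 39 were listed at 0 in all 6 libraries at 24HAI.

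**Figure D1:**
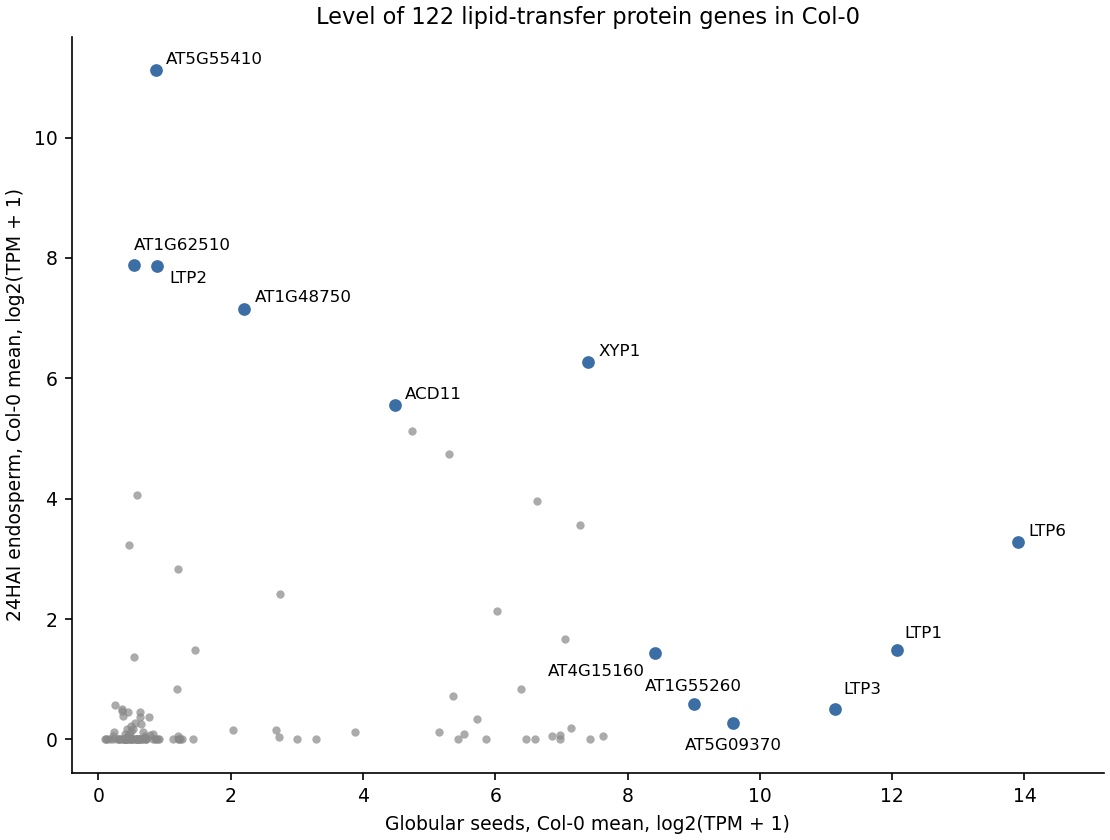
Col-0 mean of each of the 122 genes in globular seeds (x axis) and 24HAI endosperm (y axis), both as log2(TPM + 1), over 3 libraries a stage. Blue points are the 6 genes with the highest level at each stage; LTP6 lies far right and AT5G55410 at the top left, and of the 12 only XYP1 and ACD11 pass 4 on both axes.

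The first comparison asked which of these genes differ between the genotypes in globular seeds. Tested by limma on log2(TPM + 1) was each gene whose mean reached 1 TPM, and a gene was counted at an adjusted p (Benjamini-Hochberg) under 0.05 and at least a 2-fold difference. In the libraries labelled *vel3*, 6 of the 119 tested genes fell and 3 rose. Of the 6 that fell, 4 belong to an array of 5 on chromosome 5 (AT5G38160, AT5G38170, AT5G38180 and AT5G38197), and the others were AT1G43665 and AT4G15160. The genes that rose were AT1G05450, AT1G73550 and AT4G14805. Over all 26593 tested genes, 0.369% fell and 1.71% rose by the same threshold, against 5.04% and 2.52% of the lipid-transfer genes. Of the 119, 72 reached the mean of 1 TPM only through the libraries labelled *vel3*, and all 9 genes past the threshold were among the other 47.

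These calls rest on the trend of the variance on the mean, with which limma took the spread from genes at the same level and not from the gene's own libraries. Without that trend none of the 119 passed (33 had an unadjusted p under 0.05, and the smallest adjusted p was 0.107), as was the case for all genes tested, of which 2034 had an unadjusted p under 0.05. When library 3 labelled *vel3* was left out, 8 of the 9 genes were still counted, all but AT5G38170 (adjusted p = 0.0891 from limma). AT5G38160, AT5G38180, AT1G05450 and AT1G73550 also passed after quantile normalization, and again with the median of the silent genes subtracted from each library, while the other 5 did not.

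The 5 genes of the chromosome 5 array span 25.6 kb of TAIR10.1, at chr5:15225767-15251320, and all lie on the plus strand. AT5G38160 had 354, 24.8 and 86.8 TPM in Col-0 against 2.18, 1.69 and 10.9 TPM in *vel3*-labelled libraries. Each Col-0 library was above each of the others, although the Col-0 values themselves spread over an order of magnitude. The log2 difference was -4.32 (SE 0.21 with the trend and 1.08 without it, limma adjusted p = 1.1e-88 and 0.471).

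AT5G38180 followed the same order of libraries in Col-0, with 96.7, 14.7 and 43.6 TPM against 3.33, 1.15 and 11.3 TPM, a log2 difference of -3.07 (SE 0.25). AT5G38170 had 110, 31.8 and 50.3 TPM in Col-0 against 21.8, 20.2 and 19.1 TPM, a difference of -1.42 (SE 0.19) that was -0.94 without Col-0 library 1, under the 2-fold minimum. For these 3 genes, Col-0 library 1 was the highest and library 2 the lowest of Col-0, and the groups did not overlap. All 3 are of the small type with 8 residues between CC and CXC.

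The other pair of the array was more even among the Col-0 libraries. AT5G38197 had 87.2, 96.5 and 106 TPM in Col-0 against 58.7, 32.2 and 51.5 TPM in *vel3*-labelled libraries, a log2 difference of -1.05 (SE 0.19). Its call was lost without Col-0 library 3 (-0.98) and without library 2 labelled *vel3* (-0.80), both under the 2-fold minimum. Its RefSeq protein has 6 cysteines and falls outside the pattern. AT5G38195, the neighbour whose coding sequence is 87.6% identical to it, had 107, 110 and 129 TPM against 83.6, 126 and 49.2 TPM, so its groups overlapped (log2 difference -0.50, limma adjusted p = 0.228). Summed over the 5 genes, the Col-0 libraries had 754, 278 and 415 TPM and those labelled *vel3* 170, 182 and 142 TPM.

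The 250 bases upstream of the RefSeq gene start were searched on both strands for CATGCA (the RY core, a letter string bound by B3-domain seed regulators), ACGTG, the L1 box TAAATGCA or TAAATGTA, and the prolamin box TGTAAAG. On 2 strands ACGTG overlaps itself in CACGTG, and the RY core overlaps itself in CATGCATG. The RY core was present upstream of all 5 genes of the array, while 8.43% of 27443 nuclear genes and 22 of the 122 lipid-transfer genes (18%) hold it in a window of this length. ACGTG was present upstream of AT5G38160 and AT5G38170, and in 22.9% of all genes. The L1 box, found in 4.49% of all genes, matched in none of the 5 windows, and the prolamin box, found in 4.53%, in that of AT5G38197. The windows of all 5 genes are shown because each fell in globular seeds or rose at 24HAI, and capitals mark every match to a searched motif, read 5′ to 3′ on the plus strand of TAIR10.1.
AT5G38160, chr5:15225517-15225766: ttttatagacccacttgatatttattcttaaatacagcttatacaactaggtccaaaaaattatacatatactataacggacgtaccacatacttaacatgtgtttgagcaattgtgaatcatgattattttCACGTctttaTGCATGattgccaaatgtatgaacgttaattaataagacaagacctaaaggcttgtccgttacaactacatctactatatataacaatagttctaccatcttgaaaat
AT5G38170, chr5:15227388-15227637: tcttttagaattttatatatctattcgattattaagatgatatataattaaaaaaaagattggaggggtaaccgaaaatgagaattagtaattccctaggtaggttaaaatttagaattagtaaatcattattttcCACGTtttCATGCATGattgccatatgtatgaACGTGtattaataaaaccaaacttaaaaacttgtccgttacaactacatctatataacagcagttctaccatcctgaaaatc
AT5G38180, chr5:15229560-15229809: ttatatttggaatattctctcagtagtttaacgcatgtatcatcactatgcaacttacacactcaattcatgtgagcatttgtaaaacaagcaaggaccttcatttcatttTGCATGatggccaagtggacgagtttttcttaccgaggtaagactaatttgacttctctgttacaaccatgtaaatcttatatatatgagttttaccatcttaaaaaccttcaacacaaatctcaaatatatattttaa
AT5G38195, chr5:15246660-15246909: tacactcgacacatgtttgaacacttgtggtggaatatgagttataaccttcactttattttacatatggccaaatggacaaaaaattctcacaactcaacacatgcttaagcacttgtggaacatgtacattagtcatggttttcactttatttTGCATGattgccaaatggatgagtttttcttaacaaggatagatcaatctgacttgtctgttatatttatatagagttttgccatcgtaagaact
AT5G38197, chr5:15250724-15250973: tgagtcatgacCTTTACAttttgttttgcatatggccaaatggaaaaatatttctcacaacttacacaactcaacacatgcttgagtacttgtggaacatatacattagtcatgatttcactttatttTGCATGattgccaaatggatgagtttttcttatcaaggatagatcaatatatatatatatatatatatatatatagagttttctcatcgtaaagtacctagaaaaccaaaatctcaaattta
In each window the capitals hold TGCATG, the other strand of CATGCA, and AT5G38170 has the overlapping form. A match is a letter string and no measured site. The 5 genes are neighbours whose coding sequences are 78.8% to 87.6% identical to that of their most similar gene. Their windows are thus not independent, and the array was chosen for its calls in these data. None of the 3 genes of the array on chromosome 1 that holds AT1G43665 has CATGCA in this window.

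AT1G43665 (chr1:16452981-16453804 of TAIR10.1), which encodes 123 residues with 7 cysteines, had 112, 125 and 138 TPM in Col-0 against 73.0, 33.1 and 46.5 TPM in *vel3*-labelled libraries (log2 difference -1.35, SE 0.19). AT4G15160 (chr4:8646150-8647252), with a protein of 275 residues, had 321, 419 and 283 TPM against 179, 47.5 and 185 TPM (-1.52, SE 0.26). In both genes library 2 labelled *vel3* was the lowest library and the groups did not overlap. Without that library the difference of AT4G15160 was -0.88, under 2-fold. *LTP4* (AT5G59310), an epidermal gene next to *LTP3*, had 101, 150 and 125 TPM against 94.4, 65.3 and 53.5 TPM, which passed the adjusted p (0.0019 from limma) and not the fold minimum (-0.83). Without that minimum 7 of the tested genes were lower and 3 higher, where 1.01% and 2.21% of all tested genes were.

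Of the genes that rose, AT1G73550 (chr1:27647756-27648709) changed at the highest level, from 36.4, 51.5 and 27.4 TPM in Col-0 to 160, 126 and 118 TPM, a log2 difference of 1.82 (SE 0.19, limma adjusted p = 6.1e-19). AT1G05450 went from 1.04, 2.23 and 1.96 TPM to 12.3, 11.1 and 16.7 TPM (2.40, SE 0.42, adjusted p = 1.6e-06 from limma). AT4G14805 went from 2.19, 3.48 and 3.69 TPM to 11.9, 6.93 and 14.9 TPM (1.54, SE 0.39, adjusted p = 0.0039 from limma). For each of the 3, all libraries labelled *vel3* lay above all of Col-0. In AT1G05450 and AT4G14805 the highest value came from library 3. AT1G05450 and AT1G73550 have 12 residues between CC and CXC, and AT4G14805 has 13. The call of AT4G14805 was lost in 3 of the 6 fits that left out 1 library, with a highest adjusted p of 0.136 from limma, and 217 bp of the gene overlap a gene on the opposite strand.

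**Figure D2:**
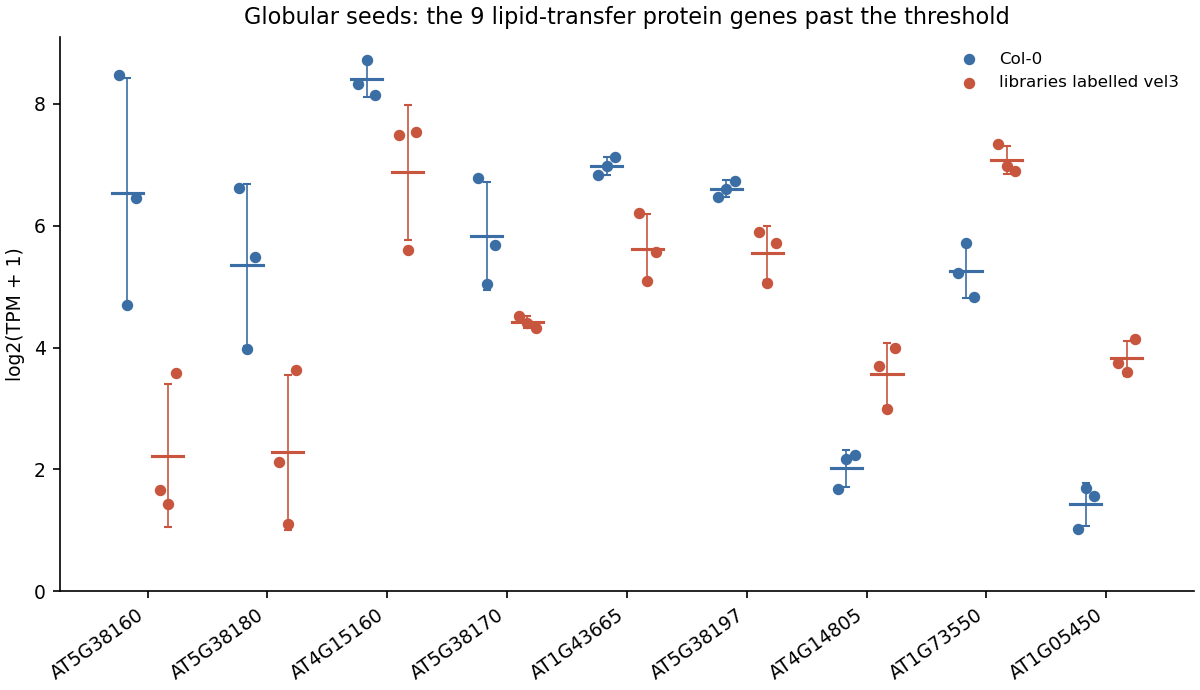
Level of the 9 genes past the threshold in globular seeds, as log2(TPM + 1) in each library (points), with the mean and SD of 3 libraries (bars), in Col-0 (blue) and in libraries labelled vel3 (red). Genes are ordered by their log2 difference, from -4.32 for AT5G38160 to 2.40 for AT1G05450; the groups do not overlap in any of the 9, and the Col-0 points of AT5G38160 range from 24.8 to 354 TPM.

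The 5 most abundant genes did not pass. *LTP6* had 12403, 13863 and 8020 TPM in *vel3*-labelled libraries, each below each Col-0 library, with a log2 difference of -0.45, and *LTP1* had 3484, 3844 and 2946 TPM (-0.33). Few genes reach such levels, and the trend gave *LTP6* an SE of 10.3, so the test could not have passed a difference of this size; without the trend its adjusted p was 0.500. *LTP3* had 1542, 2541 and 909 TPM and AT1G55260 had 390, 623 and 211 TPM, and both overlapped with Col-0. AT5G09370 went the other way, with 753, 913 and 650 TPM in Col-0 against 1223, 1119 and 985 TPM and no overlap (0.53, limma adjusted p = 0.621). The sum over the 122 was 25285, 25476 and 26168 TPM in Col-0 against 21468, 24406 and 15561 TPM in *vel3*-labelled libraries, the lowest in library 3. Among the tested genes 10 had all libraries labelled *vel3* below all of Col-0 and 33 all above, where all tested genes gave 3.97% and 20%; the second count includes genes that reached the mean only through those libraries. *XYP1*, *LTPG2* and *DIR1*, the carrier of a systemic defence signal, had differences of 0.01, 0.42 and 0.09, and each turned negative after median-ratio scaling.

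The genes that are nearly silent in Col-0 followed the raised library. There were 85 genes under 2 TPM in Col-0, and their median was 9.20 TPM in library 3 labelled *vel3*, 2.14 and 0.482 TPM in the other 2 and 0.303 to 0.586 TPM in Col-0. All 85 were highest in that library, and 1 of them, AT1G05450, passed the test. The median log2 difference was 0.01 over the 47 genes with a Col-0 mean of at least 1 TPM, against 0.22 over all such genes. Over all tested genes it was 0.50 and moved to 0.10 by median-ratio scaling and to -0.02 by quantile normalization. *LTP2*, for example, had 2.92, 2.19 and 9.99 TPM there and 1.36, 0.568 and 0.627 TPM in Col-0.

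At 24HAI 27 of the genes reached a mean of 1 TPM and were compared. In the libraries labelled *vel3*, 8 of them rose and none fell, where 1.7% of all 15918 tested genes rose and 0.697% fell. Of the 27, 6 reached that mean only through the libraries labelled *vel3*, and 4 of the 8 that rose are among them (AT5G38195, AT2G18370, AT3G58550 and *EARLI1*), so their passing the filter depends on the rise itself. Over all genes, 259 reached the mean in this way and 30.5% of them rose. Of the other 21 lipid-transfer genes, with a Col-0 mean of at least 1 TPM, 4 rose (19%), where 1.23% of all 15659 such genes did. Among the 8 were *LTP2*, AT4G22470, AT1G05450 and 2 genes of the chromosome 5 array, AT5G38170 and AT5G38195. At an unadjusted p under 0.05, 18 of the 27 were higher and 3 lower, with the 6 included. The share of all tested genes at that p was not counted for this fit. All libraries labelled *vel3* lay above all of Col-0 in 18 of the 27 and below in 3. The shares over all tested genes were 12.5% and 14.5%. Without the trend limma called the same 8. It then gave an unadjusted p under 0.05 to 20 of the 27 and to 3414 of all 15918 tested genes. The median log2 difference was 0.37 over the 21 and -0.01 over all genes with such a Col-0 mean.

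Several tissue markers differed in the same libraries. The 8 seed coat markers summed to between 11.5 and 15.6 TPM in Col-0 and to between 16 and 18.8 TPM in *vel3*-labelled libraries, without overlap. Of the 3 that were tested, *MYB5* (0.427, 0.506 and 0.468 TPM against 1.86, 1.62 and 1.33 TPM) passed the adjusted p (0.017 from limma) at a log2 difference of 0.82, and *TT10* had 1.77, 0.929 and 1.08 TPM against 2.66, 2.04 and 2.51 TPM (limma adjusted p = 0.086). *MYB5* reached the mean of 1 TPM only through the libraries labelled *vel3*. Of all such genes 40.9% were higher without the fold minimum. *BAN*, the most abundant of them, overlapped between the genotypes, and *AHA10*, under 1 TPM in every library, was lower in all those labelled *vel3*. Of the 4 imbibed endosperm markers *MAN7*, a mannan-degrading enzyme of the weakening endosperm wall, rose from 15.7, 58.7 and 28.4 TPM to 114, 87.0 and 76.6 TPM (1.58, limma adjusted p = 0.046), while *EPR1*, *EXPA2* and *NCED6* overlapped. Their part in the rise of the lipid-transfer genes was not tested.

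*LTP2* (AT2G38530, chr2:16128176-16129399 of TAIR10.1), which in seedlings is linked to the cuticle of etiolated hypocotyls, was the most abundant gene that rose. It had 197, 275 and 221 TPM in Col-0 against 853, 698 and 677 TPM in *vel3*-labelled libraries, a log2 difference of 1.68 (SE 0.14, limma adjusted p = 0.0006). AT4G22470 (chr4:11840134-11841450) had 15.8, 14.3 and 17.3 TPM in Col-0 against 97.4, 69.6 and 66.9 TPM (2.22, SE 0.15, adjusted p = 0.00025 from limma). In both genes the groups were far apart and replicate 1 labelled *vel3* was the highest. A gene on the opposite strand covers all 1317 bp of AT4G22470, and the counts behind the TPM are stated to be of sense reads.

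In the chromosome 5 array, AT5G38160 and AT5G38170 had the genotypes in the other order than in globular seeds, at lower levels. AT5G38195 had 0, 0 and 0.136 TPM in Col-0 against 3.10, 3.43 and 3.01 TPM in *vel3*-labelled libraries, a log2 difference of 2.0 (SE 0.15) that depends on the pseudocount and was 4.62 with one of 0.1 TPM. AT5G38170 had 3.21, 4.70 and 2.18 TPM against 7.90, 9.11 and 6.09 TPM (1.02, SE 0.22, limma adjusted p = 0.029). Its call was lost in 4 of the 6 fits that left out 1 library, with a highest adjusted p of 0.127 from limma. AT5G38160 had 10.2, 11.5 and 10.6 TPM against 13.9, 17.9 and 14.2 TPM, without overlap but with a difference of 0.47 and an adjusted p of 0.051 from limma. AT5G38180 and AT5G38197 stayed under 1 TPM in every library.

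The remaining 4 that rose were low in Col-0. AT1G05450 had 1.78, 1.64 and 1.96 TPM in Col-0 against 9.88, 9.81 and 5.34 TPM (1.70, SE 0.21), and was the 1 gene that was higher at both stages. AT2G18370, of the LTP1 type, went from 0.317, 0.251 and 0.317 TPM to 3.27, 3.70 and 1.47 TPM (1.51, SE 0.24). AT3G58550 went from 0.361, 0.214 and 0.288 TPM to 2.65, 1.68 and 1.60 TPM (1.19, SE 0.18). *EARLI1* (AT4G12480), a proline-rich gene induced by cold and by aluminium, went from 0, 0.182 and 0.122 TPM to 3.65, 2.92 and 0.680 TPM (1.51, SE 0.35, limma adjusted p = 0.037). In 3 of these 4 genes replicate 3 labelled *vel3* was well below the other 2, and the call of *EARLI1* was lost in 2 of the 4 fits that left out 1 library and could test it. Its neighbour *AZI1*, whose annotation does not carry the words of the rule, had 0, 0.326 and 0 TPM in Col-0 against 2.55, 2.31 and 1.46 TPM (1.48, limma adjusted p = 0.0044). *AZI1* too reached the mean of 1 TPM only through the libraries labelled *vel3*, so its test depends on the rise itself.

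**Figure D3:**
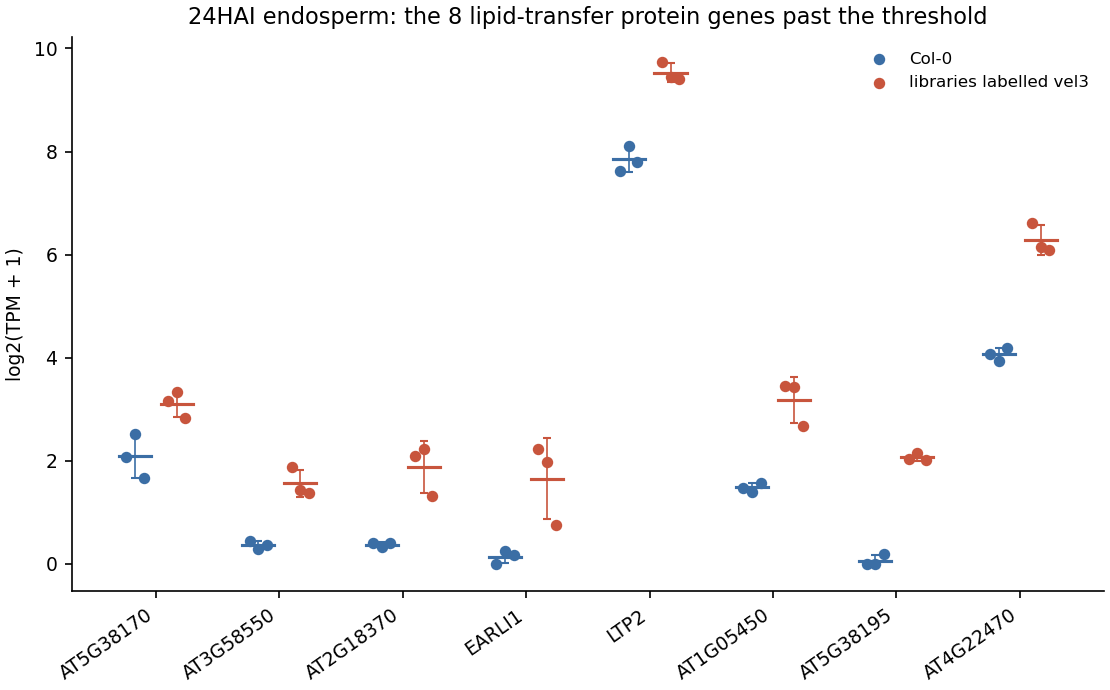
Level of the 8 genes past the threshold in 24HAI endosperm, as log2(TPM + 1) in each library (points), with the mean and SD of 3 libraries (bars), in Col-0 (blue) and in libraries labelled vel3 (red). Genes are ordered by their log2 difference, from 1.02 for AT5G38170 to 2.22 for AT4G22470; all red points lie above all blue points of the same gene, and LTP2 is the highest of the 8.

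Several abundant genes differed by less than 2-fold. *XYP1* went from 72.9, 79.9 and 75.7 TPM to 127, 109 and 112 TPM, which passed the adjusted p (0.0061 from limma) at a log2 difference of 0.59. Without the fold minimum 12 of the 27 were higher and none lower, against 4.66% and 2.94% of all tested genes. Of the 21 with a Col-0 mean of at least 1 TPM, 8 were higher (38.1%), where 4.06% of all 15659 such genes were. AT5G55410, the leading gene of the stage, had 3039, 3050 and 2554 TPM in *vel3*-labelled libraries, all above Col-0 (0.37, limma adjusted p = 0.146). *LTP1* had 0.891, 3.59 and 0.889 TPM in Col-0 against 6.66, 4.06 and 5.67 TPM, a difference of 1.33 that missed the threshold (adjusted p = 0.052 from limma). AT1G62510 had 246, 212 and 249 TPM against 162, 183 and 195 TPM (-0.38, limma adjusted p = 0.065). The lowest difference was that of AT2G45180, -1.23 (adjusted p = 0.117 from limma), named here after its values were seen, with 2.59, 11.3 and 4.52 TPM in Col-0.

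Col-0 replicate 2 stood apart for several of these genes. It was the highest Col-0 library for *LTP1*, AT2G45180, AT4G15160 (0.466, 3.94 and 0.671 TPM) and *LTPG2* (0.538, 4.55 and 1.49 TPM). The 9 embryo markers summed to 169 TPM in that library, to 136 and 143 TPM in the other Col-0 libraries and to between 111 and 128 TPM in those labelled *vel3*. Of these 9 markers 6 reached a mean of 1 TPM in this endosperm-enriched tissue. The imbibed endosperm markers *EXPA2* (67.6, 423 and 153 TPM in Col-0) and *MAN7* (15.7, 58.7 and 28.4 TPM) were also highest in Col-0 replicate 2. *EPR1* was lowest there, with 19406, 16077 and 20082 TPM, and *NCED6* lay between the other Col-0 libraries. The part of either marker set in the low genes was not tested. Without Col-0 replicate 2, *LTP1* passed the threshold (1.75, limma adjusted p = 0.00041). The sum over the 122 genes was 2944, 3374 and 2993 TPM in Col-0 against 4710, 4538 and 3991 TPM in *vel3*-labelled libraries, without overlap.

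Whether the effect of the genotype differed between 24HAI and globular seeds was tested by the interaction of genotype and stage in limma over the 12 libraries. Of 100 tested genes 5 passed at an adjusted p under 0.05 (5%), where 1.62% of all 24350 tested genes did. The effect was more positive at 24HAI in AT5G38160 (4.79, SE 1.02), AT5G38195 (2.51, SE 0.35), AT5G38170 (2.44, SE 0.49) and AT1G43665 (1.71, SE 0.35). It was more negative in AT1G73550 (-2.10, SE 0.28), which rose in globular seeds and had 25.7, 25.7 and 25.6 TPM in Col-0 against 23.4, 21.5 and 18.3 TPM in *vel3*-labelled libraries at 24HAI. The adjusted p from limma was 0.0033 for AT5G38195 and 0.0021 for AT1G73550, and between 0.024 and 0.034 for the other 3. Only AT5G38195 and AT1G73550 kept their call in all 12 fits that left out 1 library. AT1G43665 was at 0 TPM in all 24HAI libraries of Col-0 and at most at 0.618 TPM in the others. For AT5G38180, which fell in globular seeds, the difference of 3.07 did not pass (adjusted p = 0.121 from limma).

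**Figure D4:**
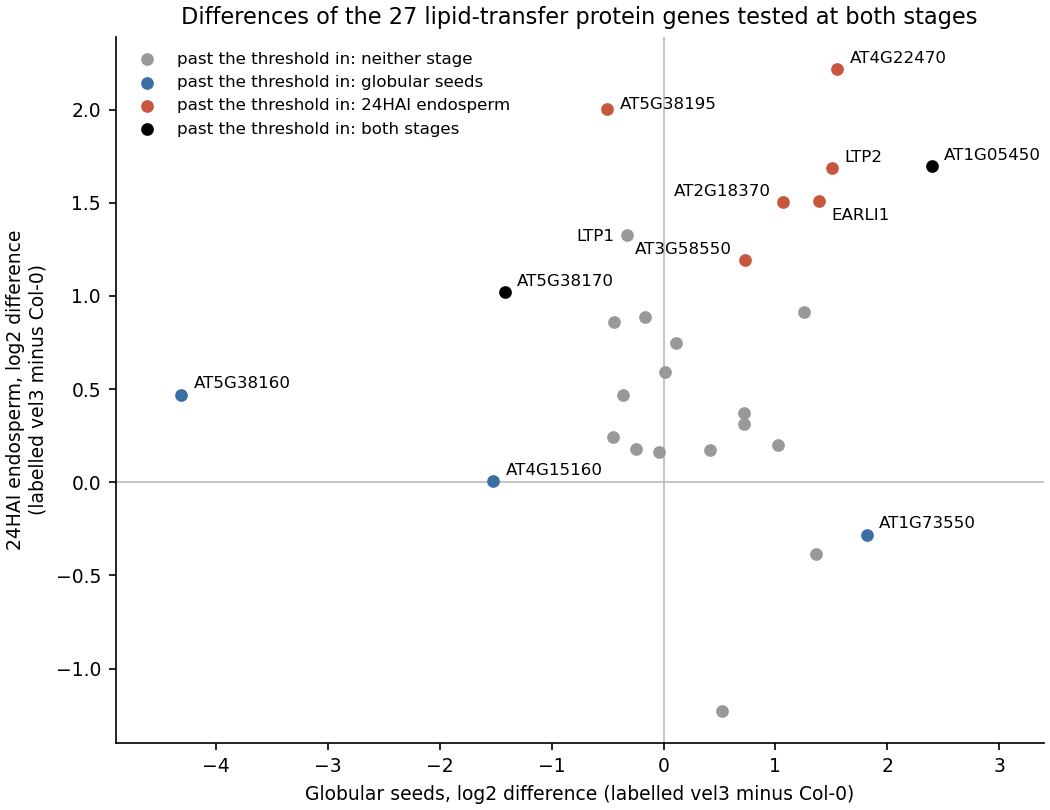
Log2 difference, labelled vel3 minus Col-0, of the 27 genes tested at both stages, in globular seeds (x axis) and 24HAI endosperm (y axis). Colour shows the stage at which a gene passed the threshold; AT1G05450 lies upper right, AT5G38160 far left at -4.32 and 0.47, and AT5G38170 at -1.42 and 1.02.

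In mature endosperm 2 of the 122 genes are listed. AT1G73550 had 4.47, 2.42 and 1.24 TPM in Col-0 against 8.56, 4.49 and 3.78 TPM in *vel3*-labelled libraries, and the groups overlapped. *LTP1* was at 0 in 2 libraries of each genotype. All 640 genes listed for this stage have a higher mean in *vel3*-labelled libraries, so the direction is given by the choice of the genes and was not tested.

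A list of 29 other genes of cutin, wax and suberin formation, the lipids that these proteins are thought to carry, was read beside them. In globular seeds all 29 were tested and none rose or fell in limma, with 1 higher at an unadjusted p under 0.05. Over all tested genes 1.71% rose and 0.369% fell. Of the 29, 10 reached the mean of 1 TPM only through the libraries labelled *vel3*. At 24HAI 14 were tested, 1 rose (7.14%, where 1.7% of all tested genes did) and none fell. Without the fold minimum *CER6*, *KCS2* and *ABCG2* were higher, 3 of the 14, and *ABCG2* reached the mean of 1 TPM only through the libraries labelled *vel3*. The gene that rose was *CER6*, a condensing enzyme for the very long chains of waxes, with 1.62, 1.47 and 0.785 TPM in Col-0 against 4.20, 4.54 and 3.15 TPM in *vel3*-labelled libraries (1.13, SE 0.19, limma adjusted p = 0.011). The 6 young endosperm markers summed to 50.1 to 63.0 TPM in globular Col-0 and to 76.7 to 95.9 TPM in *vel3*-labelled libraries, where *AGL62* and *MINI3* of the list rose. *ZOU*, an endosperm regulator of the same list, was lower, with 12.7 to 15.7 TPM in Col-0 against 5.32 to 10.5 TPM, and passed the adjusted p (0.019 from limma) at a log2 difference of -0.99. Their part in the globular differences was not tested.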

How the data were processed

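RNA-seq was read in 18 libraries (3 per genotype and stage), and 20 ChIP-seq samples were not used. Per the labels and the methods of the study, the authors used cutadapt 1.9.1 for trimming, STAR 2.5 for alignment (TAIR10), featureCounts for reads on the sense strand, and edgeR, which needs counts. The deposited values are TPM per gene, so depth per gene is unknown. Groups follow GEO's labels, which do not say which plants each replicate came from. At 24HAI and in the interaction, p-values rest on the spread between these samples, shared in part with genes at the same level. In globular seeds the main test took the spread from genes at the same level and not from each gene's own libraries.

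Members were found by annotation text, which leaves out *LTPG1*, *AZI1* and *AIR1*. Members and gene lists were chosen with earlier results of these data known. log2(TPM + 1) was compared by limma 3.58.1 (R 4.3.3) with a trend, for each gene whose mean reached 1 TPM, with Benjamini-Hochberg adjustment over all tested genes; the procedure was tested on simulated data. Counts split by the Col-0 mean were added after seeing the data. Fold changes on this scale understate low genes. Genes named are all past the threshold, the 6 most abundant per stage, the interaction calls, those listed in mature endosperm and members of known role (*LTP5*, *LTP7*, *LTP12*, *LTPG15* and *XYP2* did not pass and are not described). Sequences are from RefSeq TAIR10.1; similar genes were found with blastn 2.17.0 over at least 80% of the coding sequence. Arrays are neighbours within 20 kb. Alternatives were pseudocount, filter, scaling, no trend, background subtraction, replicate block (24HAI only, since globular columns carry no sample's number) and each library left out.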

Additional observations from a re-analysis of the deposited data

Results flagged for a closer look

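The effect of the genotype differed between 24HAI endosperm and globular seeds, by the interaction term in limma over 12 libraries, for 5 of the 100 genes tested. Over all 24350 tested genes the share was 1.62%. The difference on the log2 scale, 24HAI minus globular, was 4.79 for AT5G38160, 2.51 for AT5G38195, 2.44 for AT5G38170 and 1.71 for AT1G43665. It was -2.10 for AT1G73550. AT1G43665 was nearly silent at 24HAI (log2 difference 0.36), so its term comes mostly from its globular difference of -1.35. In AT5G38170 the single-stage differences had opposite signs and both passed, at -1.42 in globular seeds and 1.02 at 24HAI. Neither call was firm: of 6 fits that left out 1 library, 4 kept it in globular seeds and 2 at 24HAI. With no trend, limma gave an adjusted p of 0.0984 for AT5G38160, 0.0712 for AT5G38170 and 0.0699 for AT1G43665. Globular samples were whole seeds and 24HAI samples endosperm-enriched tissue, so stage and tissue cannot be told apart.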

How the results depend on the processing

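In globular seeds, 3 genes higher and 6 lower became 6 higher with median-ratio scaling, 2 lower with quantile normalization, 2 lower with the background subtracted, and 0 higher and 0 lower without the trend. With 1 library left out, 2 to 5 were higher and 4 to 7 lower, the 5 and 4 without library 2 labelled *vel3*. At 24HAI, 8 higher became 4 with a mean of at least 5 TPM, and 5 to 12 were higher and 0 to 1 lower with 1 library left out (12 without Col-0 replicate 2, 5 without replicate 1 labelled *vel3*, and the 1 lower without Col-0 replicate 1). The 5 genes whose effect differed between stages became 10 with median-ratio scaling, 13 with quantile normalization, 2 without the trend and 10 with the background subtracted, and 2 to 42 with 1 library left out, the 42 without globular library 2 labelled *vel3* and 15 without its library 3.

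No gene past the threshold changed direction in any of 326 values under these alternatives, and 65 of them no longer passed. Of the 9 globular calls, 4 remained with the background subtracted and 4 with quantile normalization. Among genes that did not pass, the direction turned in globular seeds with median-ratio scaling for *XYP1* (-0.42), *LTPG2* (-0.013) and *DIR1* (-0.33). With quantile normalization it turned for AT2G18370 (-0.079), AT3G58550 (-0.38), AT5G55410 (-0.36), AT1G48750 (-0.30), *LTP5* (-0.58), *LTP7* (-0.37) and *LTPG15* (-0.051), and at 24HAI for AT4G15160 (-0.089). With the background subtracted it turned for AT1G48750 (-0.40), *XYP1* (-0.029) and *DIR1* (-0.11). With 1 library left out, the globular difference ranged from -0.16 to 0.19 for *XYP1*, -0.18 to 0.062 for *ACD11*, -0.033 to 0.25 for *DIR1* and -0.24 to 1.03 for *LTP5*. At 24HAI it ranged from -0.32 to 0.56 for AT4G15160 and -0.25 to 0.67 for *LTPG2*. The cause was not tested.

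The deviations of same-numbered libraries at 24HAI had correlations of -0.39, 0.022 and 0.218. These show no clear pairing by number, and with 3 libraries per genotype they cannot exclude it. With the replicate block, 7 genes were higher and 0 lower at 24HAI, and *EARLI1* missed the threshold (limma adjusted p = 0.0505). No paired analysis was possible for globular seeds or between stages because the globular columns could be tied to a genotype and not to a numbered sample.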
